A study of Mus musculus with 9 samples.

Results

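Long noncoding RNAs were followed through RNA-seq of mouse peritoneal macrophages, the phagocytes that reside in the abdominal cavity. The 8 genes described are the nuclear RNAs Neat1 and Malat1, the microRNA host genes Mir142hg and Mir155hg, and the snoRNA host genes Gas5, Snhg1, Snhg5 and Snhg12. They were taken by symbol, with 1 row each among the 55335 genes of the table, and all 8 are among the 11721 genes that were tested. Cells of 3 groups with 3 libraries each were precultured for 1 h. They were stimulated for 4 h with 1 µg/mL lipopolysaccharide (LPS), an outer membrane molecule of bacteria that TLR4 detects. LPS+CPZ cells received 100 µM of a compound named only CPZ in the labels together with LPS, LPS+EtOH cells received 5% ethanol together with LPS, and LPS cells received LPS alone. No strain, sex or age of the mice is given, and unstimulated cells or cells given the solvent of CPZ alone were not analysed here, so all contrasts are between LPS-treated cells. Each library was made from a pool of RNA from 3 samples, which the labels call distinct without saying whether they came from separate mice. The p-values therefore measure the spread between pools only.

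A microRNA host gene is transcribed as a long primary RNA from which DROSHA cuts the microRNA hairpin. A snoRNA host gene carries box C/D or H/ACA snoRNAs in its introns. Its spliced remainder is exported, is read briefly by ribosomes and is known to be degraded rapidly by nonsense-mediated decay, so that such hosts are unstable in many cell types. Neat1 and Malat1 differ from both classes in staying in the nucleus, Neat1 as the scaffold of paraspeckles and Malat1 in nuclear speckles. In macrophages, miR-155 is a classical LPS-induced microRNA and miR-142 a marker of blood cells. Whether nuclear-retained and unstable transcripts move differently is the question asked of the 8 genes.

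The mature microRNAs of the microRNA hosts are shown first, since rows for both strands of the Mir142 locus enter the results. They were taken from RefSeq (GRCm38.p6), and capitals mark the seed, bases 2 to 8, with which a microRNA pairs to its targets.
mmu-miR-155-5p: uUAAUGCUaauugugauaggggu
mmu-miR-155-3p: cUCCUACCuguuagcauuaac
mmu-miR-142a-5p: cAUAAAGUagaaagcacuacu
mmu-miR-142a-3p: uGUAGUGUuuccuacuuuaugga
mmu-miR-142b: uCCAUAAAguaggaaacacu

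The miR-155 arms lie on the plus strand at chr16:84714143-84714165 and chr16:84714182-84714202, and the miR-142a arms on the plus strand at chr11:87756867-87756887 and chr11:87756903-87756925. The miR-142b sequence lies on the minus strand at chr11:87756906-87756925, and all 20 of its bases equal the start of the reverse complement of miR-142a-3p. The 5 sequences have 5 different seeds. No mature microRNA was measured here, and the host rows report the long transcript.

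The starts of the 4 snoRNA hosts are shown because Gas5 and some other hosts are known to begin, like ribosomal protein messages, with a pyrimidine tract, the 5′ TOP motif through which growth signals control translation. Each window holds 30 bases before the annotated start and 30 from it on, read from RefSeq (GRCm38.p6), and capitals mark the longest unbroken run of C and T between base -5 and base 20. Of the RefSeq starts of Gas5, the second is shown, and the first has a run of 3 bases.
Gas5: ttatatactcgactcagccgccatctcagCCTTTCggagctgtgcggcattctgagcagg
Snhg1: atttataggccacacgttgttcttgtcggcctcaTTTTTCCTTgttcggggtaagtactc
Snhg5: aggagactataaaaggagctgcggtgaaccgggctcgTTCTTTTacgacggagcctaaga
Snhg12: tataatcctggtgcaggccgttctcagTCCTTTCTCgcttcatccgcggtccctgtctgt

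The windows lie at chr1:161035136-161035195 on the plus strand, chr19:8723457-8723516 on the plus strand, chr9:88522868-88522927 on the minus strand and chr4:132308648-132308707 on the plus strand. The runs are 6, 9, 7 and 9 bases long in the order shown. They begin at bases -1, 5, 8 and -3 relative to the annotated start, so those of Snhg1 and Snhg5 do not sit at it. Among 32851 starts in the same table, 22.3% have a run of 6 bases or more, 13.6% one of 7 or more and 5.49% one of 9 or more. A run of 5 bases or more was found at 40.2% of all starts and at 46.7% of 15 starts of ribosomal protein genes. A run of this kind is a description of the window and not evidence of a TOP motif in use.

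Several facts of the whole libraries touch every value below. Over all tested genes, the log2 change had a median of -0.82 in LPS+EtOH against LPS, -0.33 in LPS+CPZ against LPS and 0.55 in LPS+CPZ against LPS+EtOH. Scaling each library by the median ratio of its genes moved these medians to -0.08, -0.08 and 0.08, so values under that scaling are given below beside many of the results. Globin genes took 0.0452 to 0.0972% of all FPKM in LPS+CPZ and 0.172 to 0.221% in LPS+EtOH, against 11.5 to 29.4% in LPS. None of 12 macrophage markers was listed at 0 throughout a group, and their summed levels were 1125 to 1321 FPKM in LPS+CPZ, 2759 to 3062 in LPS+EtOH and 1690 to 2182 in LPS. Cd14, an LPS receptor gene, held much of that sum, with means of 405.8, 2177 and 906.9 FPKM in the same order. Of the 10 tested, 3 rose and 6 fell in LPS+EtOH against LPS (median log2 change -1.18, and -0.09 under median-ratio scaling), and C1qa, a complement gene of resident macrophages, was at 0.452 to 1.03 FPKM in LPS+EtOH and 17.7 to 21.4 FPKM in LPS. With CPZ against LPS 2 rose and 7 fell. Of all tested genes, 19.0% rose and 64.6% fell in LPS+EtOH against LPS, and 20.7% rose and 48.4% fell in LPS+CPZ against LPS. The 10 neutrophil markers summed to 6384 to 6890 FPKM in LPS+CPZ, 43750 to 48330 in LPS+EtOH and 3857 to 5428 in LPS. All 10 rose in LPS+EtOH against LPS, while in LPS+CPZ against LPS 3 rose, 3 fell and 4 were not called. S100a8 held much of the higher sum with CPZ, with means of 2752 FPKM in LPS+CPZ and 995.4 in LPS. S100a9, the largest of the 10, had means of 3208 and 3369 FPKM in the same order. The 10 B cell markers summed to 147.7 to 199.2 FPKM in LPS+CPZ, to 38.1 to 58.6 in LPS+EtOH, where Vpreb3 was listed at 0, and to 485.5 to 728.6 in LPS. The 10 T and NK cell markers summed to 17.3 to 25.8 FPKM in LPS+CPZ, to 1.04 to 1.74 in LPS+EtOH, where Klrb1c was listed at 0, and to 51.4 to 66.4 in LPS. In bulk RNA, fewer cells of a type and less RNA per cell cannot be told apart, and the part of cell composition in the results below was not tested.

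**Figure D1:**
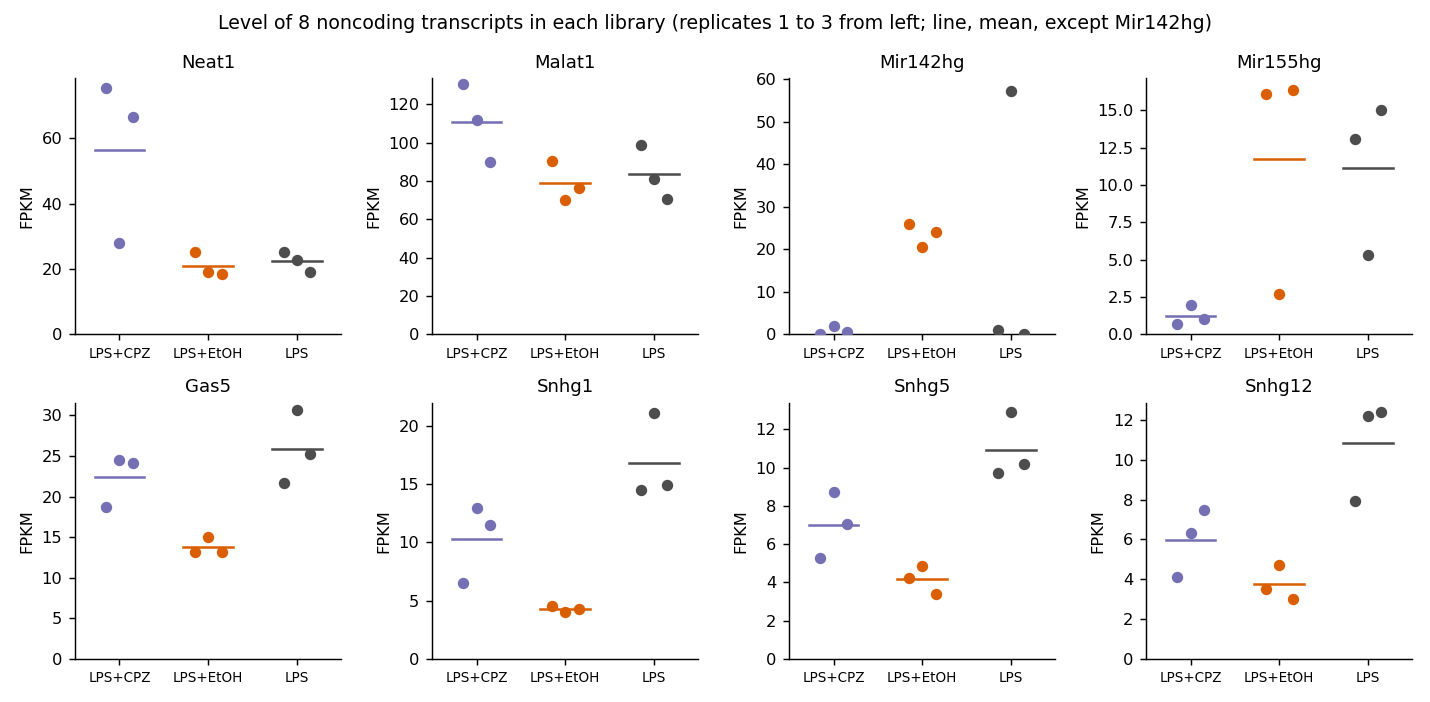
FPKM of the 8 noncoding RNAs in each library (points, replicates 1 to 3 from left to right within a group) with group means (lines, not drawn for Mir142hg, which is listed at 0 in 2 libraries). By group mean the snoRNA hosts were lowest in LPS+EtOH, Neat1 was highest in LPS+CPZ, and Mir155hg was lowest in LPS+CPZ.

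Neat1 was higher with CPZ than in the other groups. Its level per length was 75.5, 27.9 and 66.4 FPKM in LPS+CPZ, 25.2, 19.1 and 18.6 FPKM in LPS+EtOH and 25.3, 22.7 and 19.2 FPKM in LPS. Each LPS+CPZ library was above each library of the other groups, although replicate 2 was above the highest of them by a small margin, whereas LPS+EtOH and LPS overlapped. Relative to LPS, Neat1 in LPS+CPZ rose by 1.19 ± 0.31 on the log2(FPKM + 1) scale (SE; limma adjusted p = 0.00587), and leaving out any library of these groups gave 0.92 to 1.63. Against LPS+EtOH the change in LPS+CPZ was 1.28 ± 0.31 (limma adjusted p = 0.00326), and 0.54 under median-ratio scaling, where it did not pass the test. Ethanol gave a change from LPS of -0.10 ± 0.31 with a 95% interval of -0.78 to 0.59, and median-ratio scaling turned it to 0.95 with an adjusted p of 0.0247.

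A further row lies inside Neat1. Gm27505 is annotated as a miscellaneous RNA (misc_RNA) of 110 bases within the long transcript, on the same strand at chr19:5844638-5844747 (GRCm38, minus strand), while the longest annotated Neat1 transcript has 20771 bases in 1 exon. Its sequence, from the GENCODE M21 transcripts, is shown because this short stretch was listed at a higher level per length than the whole transcript.
Gm27505: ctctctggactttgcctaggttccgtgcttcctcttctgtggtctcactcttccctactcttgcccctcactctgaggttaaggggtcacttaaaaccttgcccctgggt

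Gm27505 was listed at 375, 447 and 327 FPKM in LPS+CPZ, 143, 106 and 84.7 FPKM in LPS+EtOH and 179, 160.5 and 133 FPKM in LPS. The LPS+CPZ libraries stood above all others, and replicate 2, the lowest of them for Neat1, was the highest for Gm27505. The log2 change was 1.27 in LPS+CPZ against LPS (limma adjusted p = 0.000265) and 1.79 in LPS+CPZ against LPS+EtOH (limma adjusted p = 2.25e-05). Between LPS+EtOH and LPS it was -0.52 (limma adjusted p = 0.0341), a call lost without LPS replicate 1 or 2 or LPS+EtOH replicate 2 or 3, with values of -0.42, -0.50, -0.50 and -0.34, and turned to 0.57 under median-ratio scaling. How fragments were divided between Neat1 and this row is not given, so neither value is the level of the locus by itself. Frmd8os, the antisense-annotated gene that neighbours Neat1 on the opposite strand, was below 1 FPKM in most libraries and was not tested. It was listed at 1.18, 0.988 and 1.39 FPKM in LPS+CPZ, 0.919, 0.843 and 0.998 FPKM in LPS+EtOH and 0.0232, 0.0742 and 0.0647 FPKM in LPS, so that it was higher in each of the first 6 libraries than in any LPS library.

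Malat1, the most abundant of the 8 per length, had overlapping levels in the 3 groups. It was at 130.4, 112 and 89.9 FPKM in LPS+CPZ, 90.3, 70.3 and 76.3 FPKM in LPS+EtOH and 98.6, 80.95 and 70.6 FPKM in LPS. LPS+CPZ replicates 1 and 2 were above all other libraries, and replicate 3 lay among them. The log2 change in LPS+CPZ against LPS was 0.40 ± 0.17 with a 95% interval of 0.01 to 0.79 and missed the threshold (limma adjusted p = 0.0615). It passed without LPS replicate 1 (0.53) or LPS+CPZ replicate 3 (0.54), under median-ratio scaling (0.72) and with a replicate block (limma adjusted p = 0.0147). Against LPS+EtOH, Malat1 in LPS+CPZ rose by 0.47 (limma adjusted p = 0.0291), a call lost in 4 of 6 leave-outs of a library of these groups (limma adjusted p of 0.0705 to 0.108, with values of 0.35, 0.39, 0.45 and 0.46) and turned to -0.30 under median-ratio scaling. With ethanol the change from LPS was -0.07 with a 95% interval of -0.46 to 0.31, and 1.01 under median-ratio scaling, where it passed the test as a rise (adjusted p = 0.000565). It was not called under quantile scaling (-0.13), with TPM (-0.18) or with globin genes left out (-0.38).

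**Figure D2:**
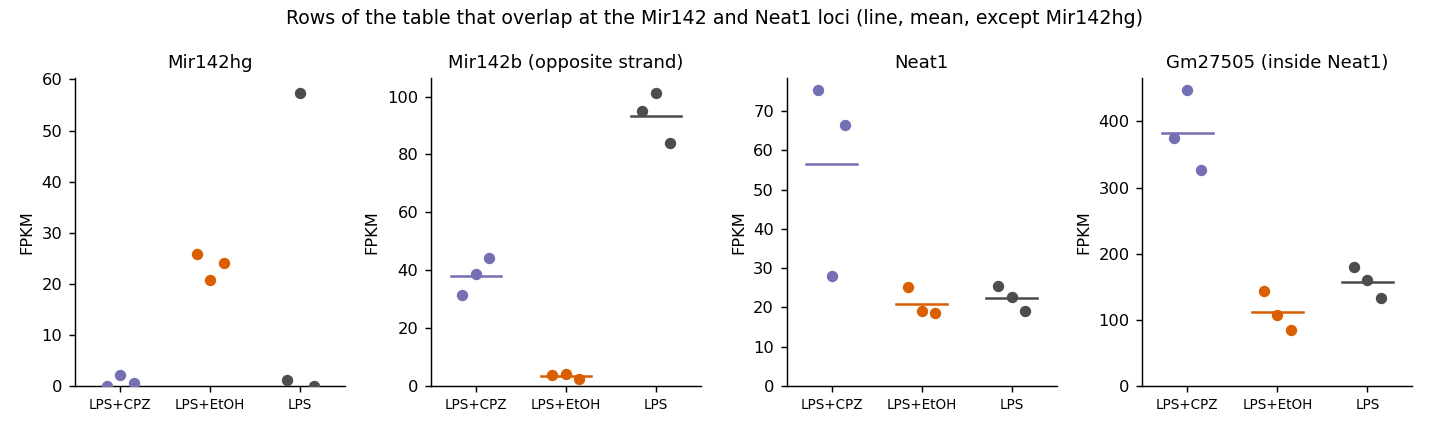
FPKM per library (points, replicates 1 to 3 from left; lines, means, not drawn for Mir142hg) of rows that overlap at the Mir142 and the Neat1 loci. In LPS+EtOH Mir142hg is high and the row on its opposite strand, Mir142b, is low, both are high in LPS replicate 2, and Gm27505, inside Neat1, was above 300 FPKM in each LPS+CPZ library and below 200 FPKM in all others.

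Of 12 other nuclear lncRNAs listed, 2 passed the filter on low values. Xist, which coats the inactive X chromosome, was at 33.5 to 41.7 FPKM in LPS+CPZ, 7.19 to 9.32 FPKM in LPS+EtOH and 36.2 to 47.1 FPKM in LPS. It fell by 2.25 on the log2 scale in LPS+EtOH against LPS (limma adjusted p = 2.13e-07) and was not called in LPS+CPZ against LPS (log2 change -0.23, and 0.08 under median-ratio scaling), but was called as a fall of 0.54 with globin genes left out (limma adjusted p = 0.0111). Tug1, a widely expressed lncRNA with a large nuclear share, was at 32.7 to 37.5 FPKM in LPS+CPZ, 22.1 to 24.9 FPKM in LPS+EtOH and 19.3 to 22.1 FPKM in LPS. It rose by 0.70 in LPS+CPZ against LPS (limma adjusted p = 0.000237). With ethanol its change of 0.16 from LPS was not called as deposited, was -0.14 with globin genes left out, and passed as a rise under median-ratio scaling (1.21) and quantile scaling (0.50).

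The genes of 14 paraspeckle proteins, many of which bind Neat1, were split close to all tested genes with CPZ. Against LPS, 2 rose, 8 fell and 4 were not called in LPS+CPZ, with a median log2 change of -0.45, while 20.7% of all tested genes rose and 48.4% fell, with a median of -0.33. Under median-ratio scaling 3 of the 14 rose and 5 fell. Ewsr1, an RNA-binding protein gene, was at 61.2 to 67.8 FPKM in LPS+CPZ and 40.5 to 51.5 FPKM in LPS (log2 change 0.50, and 0.19 and not called with globin genes left out). Nono, a core paraspeckle component, was at 10.6 to 13.9 FPKM in LPS+CPZ and 24.0 to 27.4 FPKM in LPS (log2 change -0.99). With ethanol against LPS, 13 of the 14 fell, with a median of -1.24 against -0.82 over all tested genes, of which 64.6% fell, and Nono was at 4.02 to 4.51 FPKM in LPS+EtOH. Under median-ratio scaling 4 of the 14 rose and 6 fell in this comparison. Heat shock genes, a list chosen because Neat1 is known as a stress-responsive RNA, rose in 9 of 10 cases in LPS+CPZ against LPS, where 20.7% of all tested genes rose. In LPS+EtOH against LPS 3 rose and 2 fell, with a median of 0.21 against -0.82 over all tested genes, of which 19.0% rose, and under median-ratio scaling 8 rose and 1 fell, with a median of 1.17 (quantile scaling, 6 and 2). Hsp90aa1, a cytosolic chaperone gene, was at 501 to 663 FPKM in LPS+CPZ and 91.1 to 112 FPKM in LPS.

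Mir155hg, the host of miR-155, was low in every LPS+CPZ library. It was at 0.706, 1.99 and 1.01 FPKM in LPS+CPZ, 16.1, 2.73 and 16.4 FPKM in LPS+EtOH and 13.1, 5.35 and 15.1 FPKM in LPS. LPS+CPZ did not overlap with either other group, while LPS+EtOH and LPS overlapped, and replicate 2 was the lowest library in both of those groups. Mir155hg fell by 2.38 ± 0.56 on the log2 scale in LPS+CPZ against LPS (limma adjusted p = 0.00313) and by 2.25 ± 0.56 in LPS+CPZ against LPS+EtOH (limma adjusted p = 0.00375), and each call held under all 18 alternatives that were run. For LPS+EtOH against LPS the change was -0.13 ± 0.56, with a wide 95% interval of -1.36 to 1.11, and it was 0.61 without LPS+EtOH replicate 2. The row of the Mir155 hairpin itself, inside the host, was at 0.0668 to 0.0969 FPKM over the 9 libraries and was not tested.

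Mir142hg could not be read as a group level. The row was at 0, 2.10 and 0.563 FPKM in LPS+CPZ, 25.9, 20.6 and 24.1 FPKM in LPS+EtOH and 1.16, 57.3 and 0 FPKM in LPS. Its annotated transcript has only 269 bases in 2 exons, and 2 of its entries are exact zeros, which can be failed estimates. LPS replicate 2 held the highest value of all 9 libraries, between LPS libraries at 0 and 1.16 FPKM, so no group mean is given, and the fitted changes depend on which library is left out. In limma the row was called lower in LPS+CPZ against LPS+EtOH (adjusted p = 0.0114), and was not called in LPS+EtOH against LPS (adjusted p = 0.0898) or in LPS+CPZ against LPS (adjusted p = 0.251). Without LPS replicate 2 it was called higher in LPS+EtOH against LPS (log2 change 4.05, limma adjusted p = 1.59e-05), as it was under median-ratio scaling (3.12, limma adjusted p = 0.0233) and with a replicate block (limma adjusted p = 0.0464). Relative to LPS it was called lower in LPS+CPZ without LPS replicate 3 (-2.73, limma adjusted p = 0.0459) and was at 0.20 without LPS replicate 2. The call in LPS+CPZ against LPS+EtOH was lost with a filter of any value above 0 (limma adjusted p = 0.0616).

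The opposite strand of the same locus gave steadier values. Mir142b, a row of 115 bases, was at 31.5, 38.6 and 44.1 FPKM in LPS+CPZ, 3.72, 4.24 and 2.22 FPKM in LPS+EtOH and 95.1, 101 and 83.8 FPKM in LPS. The groups were separate in all 3 comparisons, with LPS+CPZ between the lower LPS+EtOH and the higher LPS. The log2 change was -4.45 in LPS+EtOH against LPS (limma adjusted p = 3.49e-08), -1.28 in LPS+CPZ against LPS (limma adjusted p = 0.00016) and 3.17 in LPS+CPZ against LPS+EtOH (limma adjusted p = 5.5e-07). In LPS+EtOH, where Mir142b was lowest, Mir142hg was at 20.6 FPKM or more in each library. The libraries were strand-specific per the labels, but whether counting used the strand is not given, so fragments of Mir142hg, Mir142 and Mir142b cannot be told apart. The same-strand hairpin row Mir142 was at 0.121 to 0.294 FPKM in LPS+CPZ, 6.01, 0 and 0 FPKM in LPS+EtOH and 1.12 to 1.89 FPKM in LPS.

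Other microRNA hosts moved in different directions. Of 7 listed, 2 passed the filter. Mir17hg, the host of the proliferation-linked miR-17-92 cluster, was at 6.22 to 6.85 FPKM in LPS+CPZ, 0.0833 to 0.223 FPKM in LPS+EtOH and 17.0 to 30.5 FPKM in LPS. It fell by 4.34 in LPS+EtOH against LPS (limma adjusted p = 2.99e-08) and by 1.63 in LPS+CPZ against LPS (limma adjusted p = 1.99e-05). Mir22hg was at 307 to 341 FPKM in LPS+CPZ, 122 to 137 FPKM in LPS+EtOH and 130.4 to 199 FPKM in LPS. It rose by 0.97 in LPS+CPZ against LPS (limma adjusted p = 0.000271). For LPS+EtOH against LPS its change was -0.33 (limma adjusted p = 0.0669), which passed as a fall under quantile scaling (-0.62), with globin genes left out (-0.64) and without LPS replicate 3 (-0.49), and turned to a rise of 0.76 under median-ratio scaling.

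Genes of the machinery that makes microRNAs were lower with ethanol. All 10 tested of 11 fell in LPS+EtOH against LPS, against 64.6% of all tested genes, with a median log2 change of -1.67, and 9 of 10 fell under median-ratio scaling. Dgcr8, the partner of DROSHA, was at 0.285 to 0.375 FPKM in LPS+EtOH and 3.10 to 3.58 FPKM in LPS, and Xpo5, the hairpin exporter gene, was at 0.640 to 0.796 FPKM in LPS+EtOH and 7.48 to 10.97 FPKM in LPS. With CPZ against LPS, 7 of 10 fell, against 48.4% of all tested genes, with a median of -0.85, and the other 3 did not pass the test. After median-ratio scaling 6 fell and 1 rose. Drosha itself was at 2.66 to 3.21 FPKM in LPS+CPZ, 0.302 to 0.459 FPKM in LPS+EtOH and 2.67 to 3.29 FPKM in LPS.

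Messages known as targets of miR-155 moved both ways. Of 13, 2 rose and 6 fell in LPS+CPZ against LPS, where the host was lower, close to the 20.7% and 48.4% of all tested genes. The median log2 change was -0.09 against -0.33 over all tested genes. With ethanol against LPS 6 rose and 5 fell, against 19.0% and 64.6% of all tested genes, with a median of 0.19 against -0.82. In LPS+CPZ against LPS+EtOH 5 rose and 5 fell, against 61.4% and 15.2% of all tested genes, with a median of 0.18 against 0.55. Median-ratio scaling gave 3 higher and 4 lower in LPS+CPZ against LPS (median 0.23), 8 higher and 5 lower with ethanol against LPS (1.22), and for LPS+CPZ against LPS+EtOH 3 higher and 8 lower (-0.52), so the first and the last of these medians turned sign. Cebpb, a transcription factor gene of inflammatory macrophages, was at 177 to 245.3 FPKM in LPS+CPZ, 227 to 352 FPKM in LPS+EtOH and 20.1 to 39.4 FPKM in LPS. Jarid2, a Polycomb cofactor gene, was at 2.68 to 2.86 FPKM in LPS+CPZ, 2.05 to 2.66 FPKM in LPS+EtOH and 14.1 to 15.2 FPKM in LPS.

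The 4 snoRNA hosts were on average lowest in LPS+EtOH and highest in LPS. Gas5, which hosts 10 annotated snoRNAs, was at 18.7, 24.5 and 24.2 FPKM in LPS+CPZ, 13.2, 15 and 13.1 FPKM in LPS+EtOH and 21.7, 30.7 and 25.3 FPKM in LPS. Snhg1, which hosts 8, was at 6.49, 12.9 and 11.5 FPKM in LPS+CPZ, 4.52, 4.00 and 4.26 FPKM in LPS+EtOH and 14.5, 21.1 and 14.9 FPKM in LPS. The LPS+EtOH libraries were the lowest 3 of the 9 for both genes, and LPS+CPZ lay below LPS without overlap for Snhg1 but overlapped with it for Gas5. Snhg5, which hosts 2 snoRNAs, was at 5.28, 8.74 and 7.03 FPKM in LPS+CPZ, 4.23, 4.85 and 3.39 FPKM in LPS+EtOH and 9.74, 12.9 and 10.2 FPKM in LPS. Snhg12, which hosts 5, was at 4.12, 6.33 and 7.46 FPKM in LPS+CPZ, 3.53, 4.73 and 2.99 FPKM in LPS+EtOH and 7.92, 12.2 and 12.4 FPKM in LPS. All 3 groups were separate for Snhg5, while for Snhg12 LPS+CPZ and LPS+EtOH overlapped.

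Relative to LPS all 4 snoRNA hosts fell in LPS+EtOH, as did 64.6% of all tested genes. Snhg1 had the largest log2 change, -1.74 ± 0.22 (SE; limma adjusted p = 2.55e-05), which kept its call under all 18 alternatives. Snhg12 fell by 1.31 ± 0.22 (limma adjusted p = 0.000237), Snhg5 by 1.21 ± 0.18 (limma adjusted p = 8.28e-05) and Gas5 by 0.85 ± 0.15 (limma adjusted p = 0.000329). Gas5 thus lay at the median of all tested genes, -0.82, and the other 3 below it. Under median-ratio scaling Snhg5 (-0.26) and Snhg12 (-0.37) did not pass the test and Gas5 was at 0.19.

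Relative to LPS the hosts changed by smaller amounts in LPS+CPZ, and 3 fell, against 48.4% of all tested genes. Snhg12 fell by 0.77 ± 0.22 (limma adjusted p = 0.0104), Snhg1 by 0.69 ± 0.22 (limma adjusted p = 0.018) and Snhg5 by 0.59 ± 0.18 (limma adjusted p = 0.0136). Gas5 had a change of -0.19 ± 0.15 with a 95% interval of -0.53 to 0.14, which was 0.11 under median-ratio scaling, and -0.49 and called as a fall with globin genes left out. The Snhg1 call was lost without LPS replicate 2 (-0.52) or LPS+CPZ replicate 1 (-0.41), as was the Snhg5 call (-0.47 and -0.42), and none of the 3 calls held under median-ratio scaling (-0.38 for Snhg1, -0.29 for Snhg5 and -0.47 for Snhg12).

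The direct comparison of LPS+CPZ with LPS+EtOH put all 4 hosts higher in LPS+CPZ, where 61.4% of all tested genes were called higher. The log2 change was 1.06 ± 0.22 for Snhg1 (limma adjusted p = 0.00141), 0.66 ± 0.15 for Gas5 (limma adjusted p = 0.00246), 0.62 ± 0.18 for Snhg5 (limma adjusted p = 0.00899) and 0.54 ± 0.22 for Snhg12 (limma adjusted p = 0.0468). All tested genes had a median of 0.55. The Snhg12 call was lost without LPS+EtOH replicate 1 (0.51) or 3 (0.42) or LPS+CPZ replicate 2 (0.49) or 3 (0.38). Under median-ratio scaling Snhg1 was at 0.39 and not called, and the other 3 turned sign, to -0.08 for Gas5, -0.03 for Snhg5 and -0.10 for Snhg12.

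**Figure D3:**
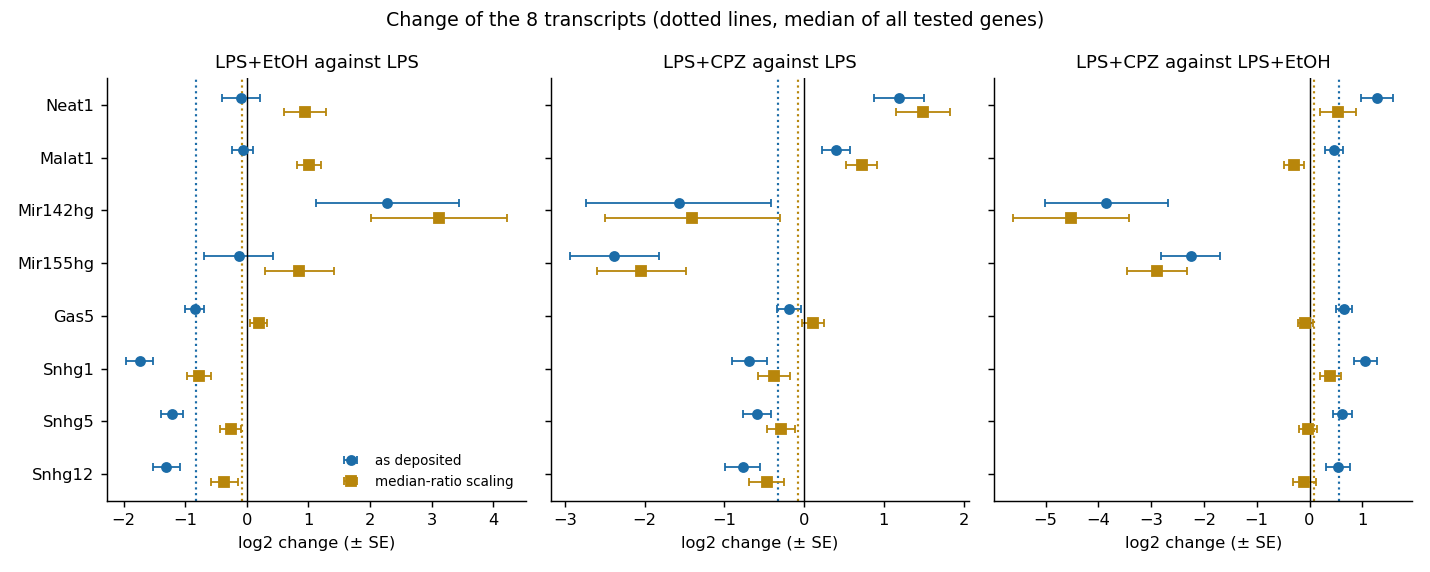
Log2 change ± SE from limma on log2(FPKM + 1) for the 8 genes in 3 comparisons, as deposited (circles) and after median-ratio scaling (squares), with the median of all tested genes under each scaling (dotted lines). Neat1 in LPS+CPZ against LPS and Mir155hg in both comparisons with LPS+CPZ lie away from 0 under both scalings, while Gas5 lies near 0 after scaling in all 3.

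Counted over the 8 genes, 4 fell, none rose and 4 did not pass the test in LPS+EtOH against LPS, against 83.6% of all tested genes called, 64.6% lower and 19.0% higher. The groups did not overlap for 4 of the 8, against 84.8% of all tested genes. In LPS+CPZ against LPS, 1 rose and 4 fell, against 20.7% and 48.4% of all tested genes (69.2% called), and 5 of 8 did not overlap, against 72.9%. In LPS+CPZ against LPS+EtOH, 6 were called higher and 2 lower, Mir155hg and the erratic Mir142hg, against 61.4% and 15.2% of all tested genes (76.6% called), and 6 of 8 did not overlap, against 79.0%. Both comparisons with LPS use the same LPS libraries and are not independent.

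Other snoRNA hosts gave a mixed picture. Of 17 listed, 9 were tested, and 5 fell while Snhg9 rose in LPS+EtOH against LPS, with a median log2 change of -0.84, close to the -0.82 of all tested genes, of which 64.6% fell. Under median-ratio scaling 3 rose and 3 fell, with a median of 0.17, and under quantile scaling 3 and 3 with one of -0.11. Snhg15 was at 3.45 to 6.49 FPKM in LPS+CPZ, 3.25 to 4.03 FPKM in LPS+EtOH and 14.2 to 24.1 FPKM in LPS, and Snhg6 was at 3.69 to 5.10 FPKM in LPS+CPZ, 1.58 to 2.20 FPKM in LPS+EtOH and 7.38 to 13.5 FPKM in LPS. Snhg9, which lay against the list, was at 1.05 to 1.5 FPKM in LPS+EtOH and 0.148 to 0.387 FPKM in LPS, and it passed the filter only through the group where it was high. Of the 9, 5 fell and none rose in LPS+CPZ against LPS, with a median of -0.51 (48.4% and -0.33 for all tested genes), and 4 fell and 1 rose under median-ratio scaling.

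The rows of the snoRNAs inside the 4 hosts held little signal. Of 25 such rows, 16 were below 1 FPKM in all 9 libraries and 3 were at 1 FPKM or more in all 9, and a library of long RNA is not made to capture RNAs of this size. Snora44, an H/ACA snoRNA inside Snhg12 that was named after its values were seen, was at 0.753 to 1.57 FPKM in LPS+CPZ, 0.322 to 1.09 FPKM in LPS+EtOH and 6.39 to 9.95 FPKM in LPS. Its fragments cannot be told apart from those of unspliced Snhg12. Other tested rows differed in direction. Snord80 inside Gas5 (-1.63) and Gm25894 (-2.73) and Gm24452 (-2.24) inside Snhg1 fell in LPS+EtOH against LPS. Inside Gas5, Mir5117 was called higher there (2.41), with LPS libraries at 0.0196, 10.35 and 0.0262 FPKM, while Gm22357 (-0.15) and Gm25789 (0.72) were not called. Gm22357 (-0.55) and Gm25789 (-1.5) were called lower in LPS+CPZ against LPS+EtOH, where Gas5 was higher. Coding genes next to the hosts differed in direction. Slc3a2, the amino acid transporter gene that neighbours Snhg1 on the opposite strand, was at 541 to 724 FPKM in LPS+CPZ, 382 to 448 FPKM in LPS+EtOH and 183 to 240 FPKM in LPS. It rose by 0.99 in LPS+EtOH against LPS (limma adjusted p = 0.000129) and by 1.61 in LPS+CPZ against LPS (limma adjusted p = 9.36e-06), both opposite to Snhg1. Trnau1ap, which neighbours Snhg12 on the opposite strand, was at 0.772 to 1.23 FPKM in LPS+EtOH and 3.40 to 5.72 FPKM in LPS, a log2 change of -1.5 (limma adjusted p = 3.73e-05), in the same direction as Snhg12.

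Genes of the proteins that bind snoRNAs were lower with both additions. All 10 tested of 11 fell in both comparisons with LPS, against 48.4% of all tested genes with CPZ and 64.6% with ethanol, with medians of -1.44 in LPS+CPZ and -2.21 in LPS+EtOH, and all 10 also fell in both under median-ratio scaling (-1.12 and -1.30). Dkc1, the pseudouridine synthase of H/ACA particles, was at 3.14 to 4.25 FPKM in LPS+CPZ, 1.80 to 2.21 FPKM in LPS+EtOH and 14.2 to 23.2 FPKM in LPS. Nolc1, a nucleolar chaperone of snoRNPs, was at 5.57 to 7.06 FPKM in LPS+CPZ, 3.57 to 5.10 FPKM in LPS+EtOH and 29.0 to 50.7 FPKM in LPS. The nonsense-mediated decay factors, which act on spliced snoRNA hosts, fell in 10 of 10 cases in LPS+EtOH against LPS (median -0.96, against 64.6% and -0.82 for all tested genes) and in 6 of 10 in LPS+CPZ against LPS (median -0.37, against 48.4% and -0.33). Under median-ratio scaling 3 rose and 4 fell in LPS+EtOH, and 3 rose and 3 fell in LPS+CPZ. Smg6, the endonuclease of this pathway, was at 2.21 to 2.94 FPKM in LPS+CPZ, 0.439 to 0.777 FPKM in LPS+EtOH and 5.35 to 6.14 FPKM in LPS.

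Ratios taken within a library do not depend on its scaling. Against the geometric mean of 20 ribosomal protein genes, the geometric mean of the 4 hosts stood at a log2 ratio of -3.25 ± 0.05 in LPS+CPZ, -2.91 ± 0.06 in LPS+EtOH and -3.44 ± 0.11 in LPS (SD, n = 3 each). The 3 groups did not overlap, so that the hosts fell by less than the ribosomal protein genes, by 0.19 log2 units in LPS+CPZ and 0.53 in LPS+EtOH relative to LPS. The ribosomal protein genes fell in 20 of 20 cases in both comparisons with LPS, with medians of -0.80 in LPS+CPZ and -1.99 in LPS+EtOH, against 48.4% and 64.6% of all tested genes and medians of -0.33 and -0.82. Under median-ratio scaling 13 of 20 fell in LPS+CPZ (median -0.48) and 18 of 20 in LPS+EtOH (median -0.91). Rpl3 was at 62.5 to 89.8 FPKM in LPS+CPZ, 24.6 to 29.9 FPKM in LPS+EtOH and 125 to 184 FPKM in LPS. Ribosomal protein genes have many pseudogenes with which they can share fragments.

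Malat1 and Neat1 were higher relative to the geometric mean of the snoRNA hosts with both additions, whereas the log2 change of Xist with ethanol (-2.25) was below that of each of the 4 hosts. Malat1 over the geometric mean of the 4 hosts was at 4.18, 3.28 and 3.03 log2 units in LPS+CPZ, 4.05, 3.53 and 3.97 in the LPS+EtOH libraries and 2.98, 2.18 and 2.26 in the LPS libraries. All 6 libraries with ethanol or CPZ lay above the 3 LPS libraries, by 1.03 log2 units for LPS+CPZ and 1.37 for LPS+EtOH between the group means. Taken host by host, Snhg1 and Snhg5 over Malat1 were separate from LPS in both groups, while Gas5 and Snhg12 over Malat1 were separate in LPS+EtOH and overlapped between LPS+CPZ and LPS. Neat1 over the hosts was at 3.40, 1.28 and 2.60 log2 units in LPS+CPZ. The LPS+EtOH libraries had 2.21, 1.65 and 1.93, and the LPS libraries 1.02, 0.35 and 0.38, again without overlap with LPS. The difference from LPS was 1.84 in LPS+CPZ and 1.35 in LPS+EtOH. As deposited, the rise was not relative to the hosts alone. Against LPS, all tested genes had medians of -0.33 in LPS+CPZ and -0.82 in LPS+EtOH. Malat1, at 0.40 and -0.07 in that order, and Neat1, at 1.19 and -0.10, lay above these medians. Under quantile scaling Malat1 in LPS+EtOH did not, at -0.13 against a median of -0.07, while Neat1 was at 0.26 there. With CPZ under that scaling Malat1 was at 0.40 and Neat1 at 1.37, against a median of -0.06. LPS+CPZ and LPS+EtOH overlapped in both ratios. These ratios were formed with earlier results known and carry no test, and B cell, T cell and red blood cell transcripts differed between the same groups.

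**Figure D4:**
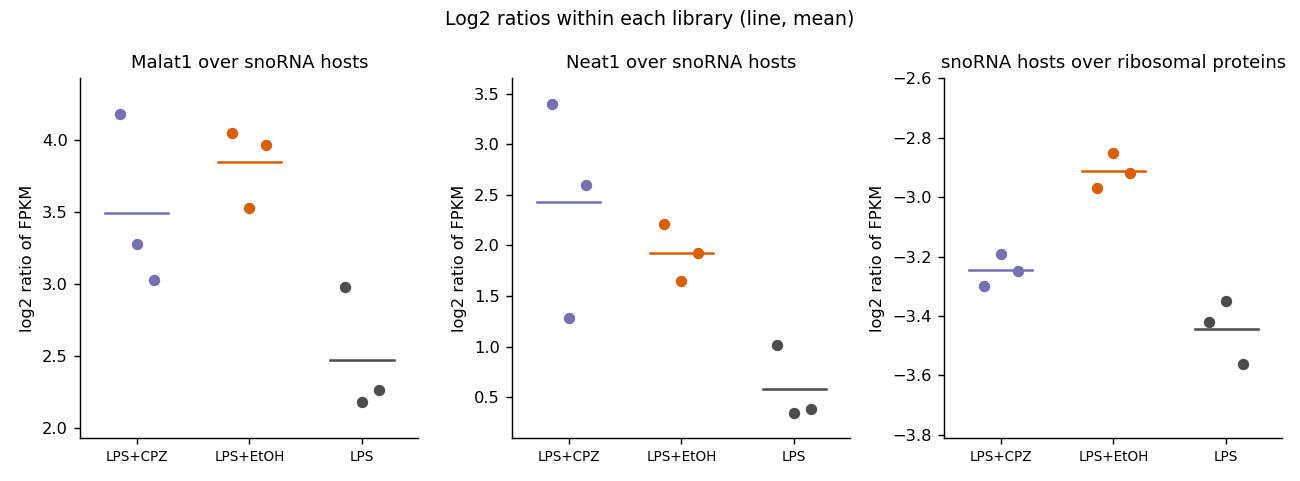
Log2 ratios of FPKM within each library (points, replicates 1 to 3 from left; lines, means) of Malat1 and of Neat1 to the geometric mean of Gas5, Snhg1, Snhg5 and Snhg12, and of that mean to 20 ribosomal protein genes. In all 3 ratios the LPS libraries are the lowest 3 of the 9.

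Within the nuclear pair, Neat1 and Malat1 kept a near-constant ratio without CPZ. The log2 ratio of Neat1 to Malat1 was -0.79, -2.00 and -0.44 in LPS+CPZ. The LPS+EtOH libraries had -1.84, -1.88 and -2.04, and the LPS libraries -1.96, -1.83 and -1.88, so that in LPS+CPZ replicates 1 and 3 lay above all other libraries and replicate 2 among them. The mean was -1.08 ± 0.82 in LPS+CPZ and -1.89 ± 0.07 in LPS (SD, n = 3 each).

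Coding messages taken as unstable rose more often than they fell with ethanol and were split with CPZ. Levels do not separate turnover from transcription, and neither was measured here. Of 15 messages known to turn over rapidly, 9 rose and 2 fell in LPS+EtOH against LPS, with a median log2 change of 0.85, against 19.0% and 64.6% of all tested genes and -0.82. Under median-ratio scaling 12 rose and 2 fell, with a median of 1.93, and under quantile scaling 8 and 4 with one of 0.38. With CPZ, 7 rose and 7 fell relative to LPS, with a median of -0.42, against 20.7% and 48.4% of all tested genes, and under median-ratio scaling 7 rose and 4 fell (-0.10). Ier3, an immediate early gene, was at 505 to 581 FPKM in LPS+CPZ, 985 to 1159 FPKM in LPS+EtOH and 145 to 202 FPKM in LPS. Myc, a transcription factor gene of growth and ribosome production, was at 5.49 to 5.95 FPKM in LPS+CPZ, 2.73 to 6.10 FPKM in LPS+EtOH and 96.1 to 150.5 FPKM in LPS.

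Beyond the 8 genes, annotated long noncoding RNAs as a class were split differently from coding genes. Of 761 tested lncRNA genes, 46.6% were called higher and 32.2% lower in LPS+EtOH against LPS, with a median log2 change of 0.25, while of 9536 protein-coding genes 16.4% were higher and 68.5% lower, with a median of -0.91. In LPS+CPZ against LPS the shares were 36% and 29.3% for lncRNA genes, against 19.2% and 51.2% for coding genes, and in LPS+CPZ against LPS+EtOH 31.8% and 35.6% against 64.9% and 13.3%. Genes that passed the filter only through the group where they are high had to differ, so these shares are descriptions. Over all tested genes of each type, median-ratio scaling gave lncRNA medians of 0.96 in LPS+EtOH and 0.22 in LPS+CPZ against LPS, and coding medians of -0.16 and -0.11. Among genes with a mean of at least 5 FPKM over the 9 libraries, a split chosen after the data were seen, 163 lncRNA genes had a median of 0.98 and 4612 coding genes one of -0.53 in LPS+EtOH against LPS, and 0.39 and -0.26 in LPS+CPZ against LPS. In this split median-ratio scaling gave 1.94 for lncRNA and 0.47 for coding genes in LPS+EtOH, with 0.64 for lncRNA and 0.03 for coding genes in LPS+CPZ, so that both coding medians turned sign. A gene can reach such a mean only through the group where it is high, so these medians are descriptions too. The 4 snoRNA hosts, annotated as lincRNA or processed transcripts, all fell in LPS+EtOH against LPS. The part that fragments from introns or overlapping genes have in these values was not tested.

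**Figure D5:**
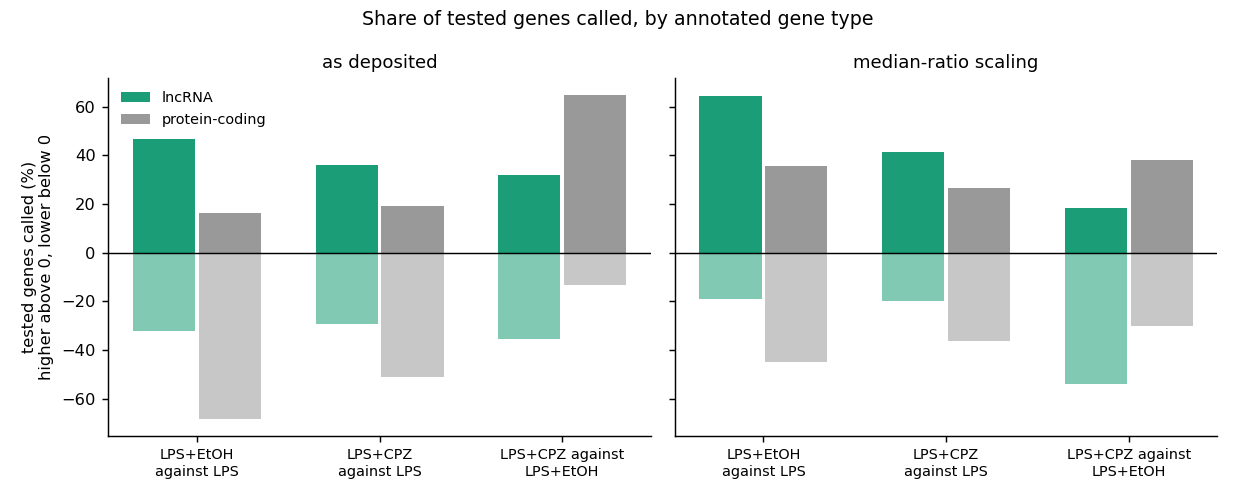
Share of tested lncRNA (TEC type included) and protein-coding genes called higher (above 0) or lower (below 0, paler) in 3 comparisons, as deposited (left) and after median-ratio scaling (right). In LPS+EtOH against LPS 46.6% of lncRNA genes and 16.4% of coding genes were higher as deposited, and 64.3% and 35.5% after scaling.

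Likeness was measured as the root mean square difference of log2(FPKM + 1) profiles centred over 9 libraries. Nearest to Snhg1 were Igkv6-32, Dad1 and Tmem261, to Snhg5 Spata5, Mrps10 and Polr2j, and to Gas5 Pcna-ps2, Mrrf and Zfp1, all at differences of 0.08 to 0.13. Malat1 lay nearest to Bcl9 (0.10), Tab3 (0.12) and Rab6a (0.13). Neat1 lay nearest to Abcc3 (0.28), Mapkapk5 (0.29) and the chemokine gene Cxcl5 (0.29). Mir155hg had no close neighbour, with Coro1a, an actin regulator gene, at 0.61, followed by Dgat2 and Cass4. Mir142hg was further still, with Cish at 1.49.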

How the data were processed

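FPKM as computed by the authors, fragments scaled by transcript length and library size, were the deposited unit for 9 libraries made with a strand-specific TruSeq kit, per the labels. Whether polyadenylated RNA was selected is not given. FastQC 0.11.2, STAR and StringTie are named without parameters, per the submitters' processing notes. A human build, hg38, is given there although the gene IDs are murine, and GENCODE M21, in which 55154 of the 55335 were present, gave gene types and overlaps. The build of the authors' alignment is thus unclear, and coordinates printed are those of the RefSeq or GENCODE sequences alone.

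FPKM are not counts. Whole multiples of the commonest step, to within 2%, made up 44.5 to 49.0% of the low values, so fragments were not recovered, depth is unknown and no counting interval is given. Total FPKM was 302126 to 363356 per library. Genes reaching 1 FPKM in 3 or more libraries were tested with limma 3.58.1 (R 4.3.3) on log2(FPKM + 1), with all 9 libraries, group as the only term, eBayes with trend and Benjamini-Hochberg adjustment at 0.05, two-sided. This scale understates changes of weakly expressed genes. The script was tested on simulated data.

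Members and gene lists were chosen with earlier results of these data known, so no test over a list is given. Genes named beside the 8 were the up to 3 with the smallest adjusted p of each list and comparison plus 1 of the other direction, with a selection of these printed, the 3 nearest profiles per member (not reported here for Snhg12), and annotated overlapping or neighbouring genes, of which those printed were selected after their values were seen. A planned ratio of Mir155hg to Mir142hg was left out because of the zeros in Mir142hg. Alternatives were pseudocounts of 0.1 and 5, 2 other filters, TPM, median-ratio and quantile scaling, 2 other eBayes settings, globin genes left out, only the groups compared, a replicate block and leaving out each library. Sequences for 6 of 8 members were in the RefSeq start table, and 12 of 20 ribosomal protein genes matched it. Tables were handled with pandas 2.3.3 and numpy 2.4.6 under Python 3.11.15, and plots drawn with matplotlib 3.10.9.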

Additional observations from a re-analysis of the deposited data

How the results depend on the processing

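Median-ratio scaling was the setting that changed most. Under it 3 of the 8 genes were higher and 1 lower in LPS+EtOH against LPS (quantile scaling, 2 lower), with 4435 and 4936 of all genes (quantile, 4160 and 4633), 2 higher and 1 lower in LPS+CPZ against LPS (quantile, 1 lower), and 0 higher in LPS+CPZ against LPS+EtOH, with 4171 and 3687 of all genes (quantile, 3844 and 3144). A filter of 5 FPKM, which tests fewer genes, gave 3770 genes lower in LPS+EtOH and 3096 in LPS+CPZ against LPS, and 3764 higher in LPS+CPZ against LPS+EtOH. A filter of any value above 0 left 1 of the 8 lower in that comparison. Leaving out a library gave 0 to 1 members higher and 4 lower in LPS+EtOH against LPS (1938 to 2208 and 6662 to 7484 of all genes), 1 to 2 and 2 to 5 in LPS+CPZ against LPS (2116 to 2293 and 4514 to 5557), and 4 to 5 and 2 in LPS+CPZ against LPS+EtOH (6444 to 6904 and 1524 to 1716). 

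Signs turned as follows where not given above. Leaving out a library gave -0.18 to 0.05 for Malat1 and -0.54 to 0.61 for Mir155hg in LPS+EtOH against LPS and -2.73 to 0.20 for Mir142hg in LPS+CPZ against LPS. In LPS+EtOH against LPS, Neat1 was 0.26 under quantile scaling, Malat1 0.01 without LPS+EtOH replicate 2, and Mir155hg 0.85 under median-ratio and 0.52 under quantile scaling. Under median-ratio scaling Neat1 was 0.95, Malat1 1.01, Gas5 0.19, Mir22hg 0.76 and Gm27505 0.57, and Tug1 was -0.14 with globin genes left out. In LPS+CPZ against LPS, Trnau1ap was 0.05 under quantile scaling, and Gas5 0.11 and Xist 0.08 under median-ratio scaling. In LPS+CPZ against LPS+EtOH, median-ratio scaling gave Malat1 -0.30, Gas5 -0.08, Snhg5 -0.03, Snhg12 -0.10 (quantile, -0.01), Tug1 -0.21 and Slc3a2 -0.16. Apart from the fewer genes of the strict filter, the cause was not tested.

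Deviations from the group means had r of -0.00645 to 0.26 across genes between same-numbered libraries, and -0.204 to 0.127 between libraries of different number. With 3 libraries per group these values cannot decide whether the numbers pair samples, and the main fit used no pairing. With the replicate block 1 of the 8 was higher in LPS+EtOH and 2 in LPS+CPZ against LPS, Malat1 and Mir142hg being added. With depth unknown, low rows such as Mir142hg and Mir142 limit what can be said.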
